A study of Mus musculus with 11 samples.

Results

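The clustered protocadherins were followed in neurons of 3 thalamic nuclei of the newborn mouse. They were taken as every gene of the count tables whose mouse symbol is Pcdh followed by a, ac, b, ga, gb or gc and a number, which gave 58 of the 54752 genes. These were 12 alternate alpha genes (Pcdha1 to Pcdha12), 2 C-type alpha genes (Pcdhac1 and Pcdhac2), 22 beta genes (Pcdhb1 to Pcdhb22), 12 gamma A genes, 7 gamma B genes and 3 C-type gamma genes (Pcdhgc3, Pcdhgc4 and Pcdhgc5). All lie on the plus strand of chromosome 18, from the first alpha gene to the end of the gamma constant exons, at chr18:36930184-37841873 (GRCm38). The beta genes occupy the middle, at chr18:37264938-37524479.

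Bulk RNA-seq was performed on neurons sorted at postnatal day 0 from the dorsolateral geniculate nucleus (dLG, 4 libraries), the ventral posteromedial nucleus (VPM, 4 libraries) and the ventral medial geniculate nucleus (MGv, 3 libraries), the first-order relays of vision, facial touch and hearing. Mice of all groups were of the outbred ICR/CD-1 strain and carried the same alleles, Gbx2CreER-IRES-EGFP/+ and R26lsl-tdTomato/+. In these mice a tamoxifen-inducible Cre recombinase, driven from the Gbx2 locus, switches on tdTomato, and the red cells were collected by flow cytometry. Each library was made from 4 pooled brains, so differences between single animals are averaged within it. Nothing in the labels says whether libraries came from separate litters or days, and p-values measure the spread between these libraries.

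Clustered protocadherins are cell surface proteins of the cadherin superfamily that bind their own kind on a neighbouring membrane, and the combination a neuron makes serves as its identity tag in self-avoidance of dendrites and axons. Each alternate gene has its own promoter and variable exon. An alpha or gamma variable exon, which encodes the extracellular domains, the transmembrane stretch and a first cytoplasmic part, is spliced to constant exons shared by its subcluster, whereas a beta gene is a single exon with no constant part. Single neurons choose a few alternate promoters, by a largely random choice that depends on DNA methylation and on looping by CTCF and cohesin, while C-type genes are expressed more uniformly. A bulk library therefore gives the mean over many cells of different choices and not the set of genes in any cell.

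The way the exons overlap decided how well each gene could be measured. Each beta gene had 1 exon block of 2588 to 8695 bases, and of its 50-base windows, the length of the reads, at most 11.3% also occurred in transcripts of other genes, apart from Pcdhb12 at 64.2%. Alternate alpha genes shared their constant exons with one another, and some also overlapped other genes. This left between 404 (Pcdha4) and 2501 (Pcdha2) exonic bases of their own. The low value of Pcdha4 reflects Gm42416, which covers 2410 of its exonic bases on the same strand, and Gm38225, which covers 393 on the opposite strand. Several members also lie under a gene on the opposite strand: Gm10545 covers 2486 exonic bases of Pcdha11 and 531 of Pcdha12, Gm37446 covers 1927 of Pcdhb12, BC037039 covers 1559 of Pcdhgc3, and Gm26672 covers 2613 of Pcdhga10, 1381 of Pcdhga11 and 771 of Pcdhgb7. Whether the counting used strand is not given in the sources used here, so reads of such partners cannot be told apart and the levels of these members are uncertain. Pcdhga10 had no exonic base of its own, and its counts of between 22 and 63 per library are left out of levels per length. Gm42416, Gm37013 and Gm37388, which have no exonic base outside other genes, alpha and gamma genes among them, were listed at 0 counts in every library.

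Total counts were between 10.2 and 23.6 M per library, with the MGv libraries the shallowest at 10.2 to 13.2 M, and the 58 genes took between 0.0212% and 0.0359% of them. Values are given as counts per M counts (CPM) after scaling by the trimmed mean of M values, and a floor of 3 counts corresponds to between 0.129 and 0.292 CPM. Some libraries, 3 in all, stood apart from the rest of their nucleus: dLG replicate 2, VPM replicate 3 and MGv replicate 1 had the chaperone gene Hspa8 at 3.05, 4.09 and 5.56 CPM, against 159 to 581 CPM in the other libraries. In 36 of the 58 genes every library had at least 10 counts, among them 20 of the 22 beta genes and 7 of the 12 alternate alpha genes. The filter on low counts kept 51 members. The 7 that did not pass were Pcdha4, Pcdha6, Pcdha8, Pcdhb1, Pcdhga6, Pcdhgb2 and Pcdhgb8. Pcdhb1, whose promoter lacks the sequence element common to most of the cluster, was at 0 in 10 libraries and at 0.0751 CPM in MGv replicate 1, and Pcdhgb8 was at 0 in all but dLG replicate 4, at 0.0954 CPM. Pcdha8 did not exceed 0.301 CPM in any library, and Pcdhga6 did not exceed 0.62 CPM.

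Levels of different genes are comparable per length, in CPM per kb of exon not shared with another gene. On this scale the highest single levels were those of beta genes, and a small set of isoforms led each subcluster in every nucleus. Pcdhb7 (7.65 CPM per kb, mean of 11 libraries), Pcdhb9 (6.93), Pcdhb20 (6.26), Pcdhb12 (5.44) and Pcdhb17 (4.92) led the beta genes, and Pcdhb18 was the lowest of the 21 tested at 0.491 CPM per kb. Pcdha11 (4.89), Pcdha5 (4.16) and Pcdha12 (3.81) led the alternate alpha genes, Pcdhga11 (2.35) the gamma A genes and Pcdhgb7 (0.987) the gamma B genes. These ranks depend on the length used. The counts of Pcdhga10, which has no base of its own by these lengths, show that the counting did not follow them for every gene. With lengths that keep bases under genes of the opposite strand, an alternative added after the data were seen, Pcdha11 fell to 1.35 CPM per kb, Pcdhb12 to 1.99, Pcdhga11 to 1.12 and Pcdhgb7 to 0.694. Pcdha5 (4.16) and Pcdha12 (2.99) then led the alternate alpha genes with ranks 1 and 2 in all 11 libraries. Pcdha11 ranked between 3 and 7 of these, and Pcdhb12 between 6 and 10 of the beta genes. The C-type alpha gene Pcdhac2 was at 3.69 CPM per kb by either length. Pcdhb7, Pcdhb9, Pcdhb20 and Pcdhb17 led the beta genes by either length.

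**Figure D1:**
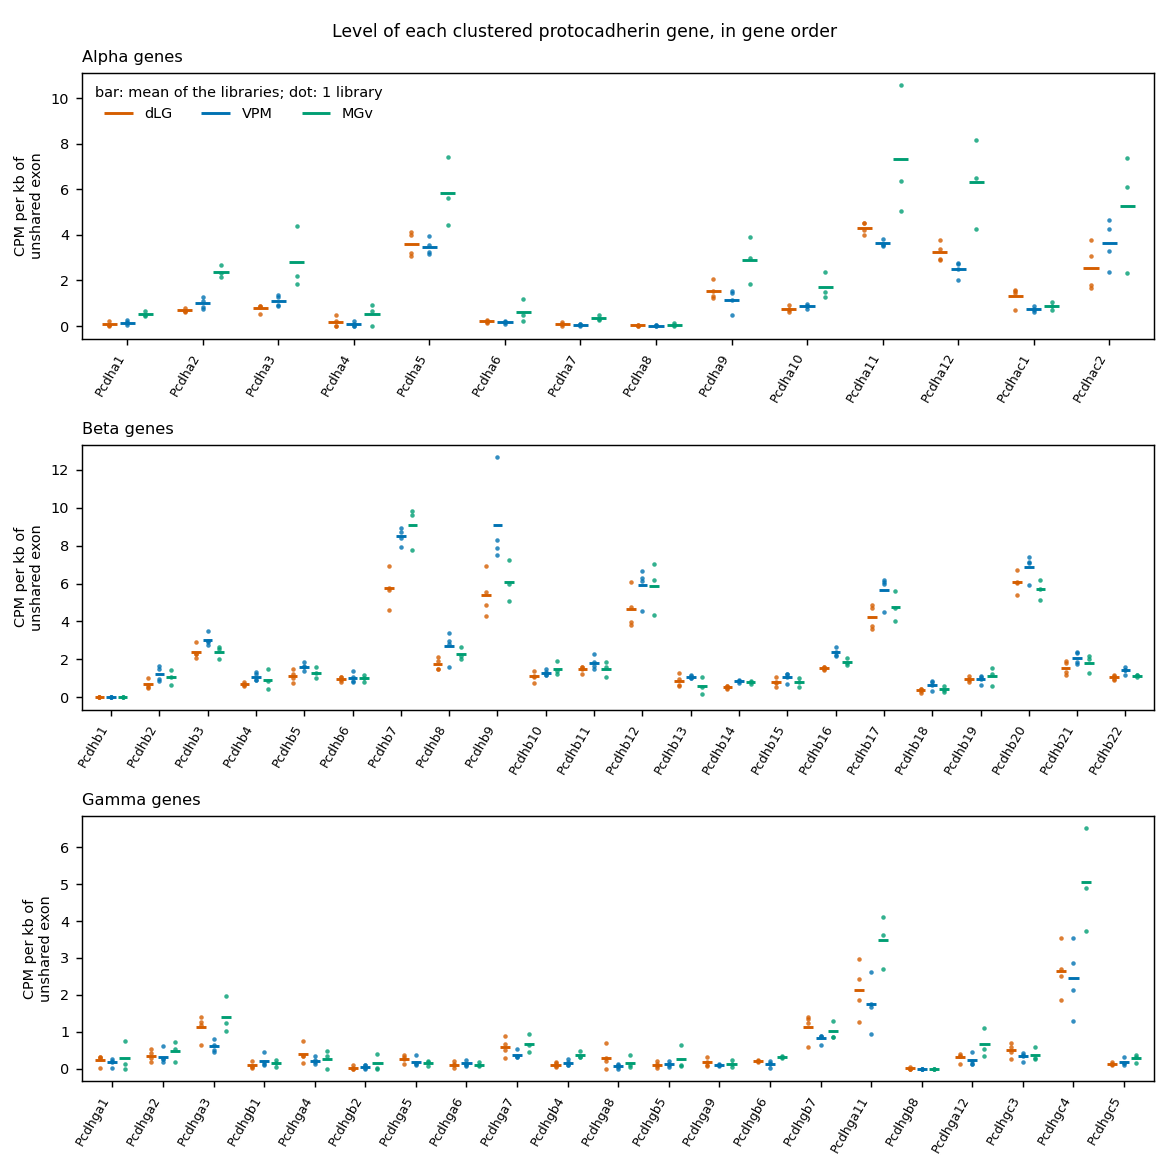
Level of each member in CPM per kb of unshared exon (y axis, linear, with its own range for each panel) in gene order along the cluster (x axis), for alpha, beta and gamma genes. Dots are libraries and bars are nucleus means. Pcdhb7, Pcdhb9, Pcdhb12, Pcdhb17 and Pcdhb20 stand above the other beta genes. Pcdha5, Pcdha11, Pcdha12, Pcdhac2, Pcdhga11 and Pcdhgc4 lead the alpha and gamma genes with their highest dots in MGv. Pcdha11, Pcdhb12 and Pcdhga11 are lower with bases under the opposite strand kept (1.35, 1.99 and 1.12 CPM per kb).

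Summed over their 22 members, the beta genes were lowest in dLG and highest in VPM. In dLG the sums were 158, 178, 149 and 155 CPM, or 160 ± 12.6 CPM (SD, n = 4). In VPM they were 228, 229, 204 and 215 CPM, or 219 ± 11.8 CPM (SD, n = 4). The ranges of dLG and VPM did not overlap, and the MGv sums of 188, 186 and 191 CPM, or 188 ± 2.45 CPM (SD, n = 3), lay between them. The ratio of VPM to dLG means was 1.37. This is the reading of bulk samples: fewer cells that express a gene and less RNA of it per cell cannot be told apart.

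**Figure D2:**
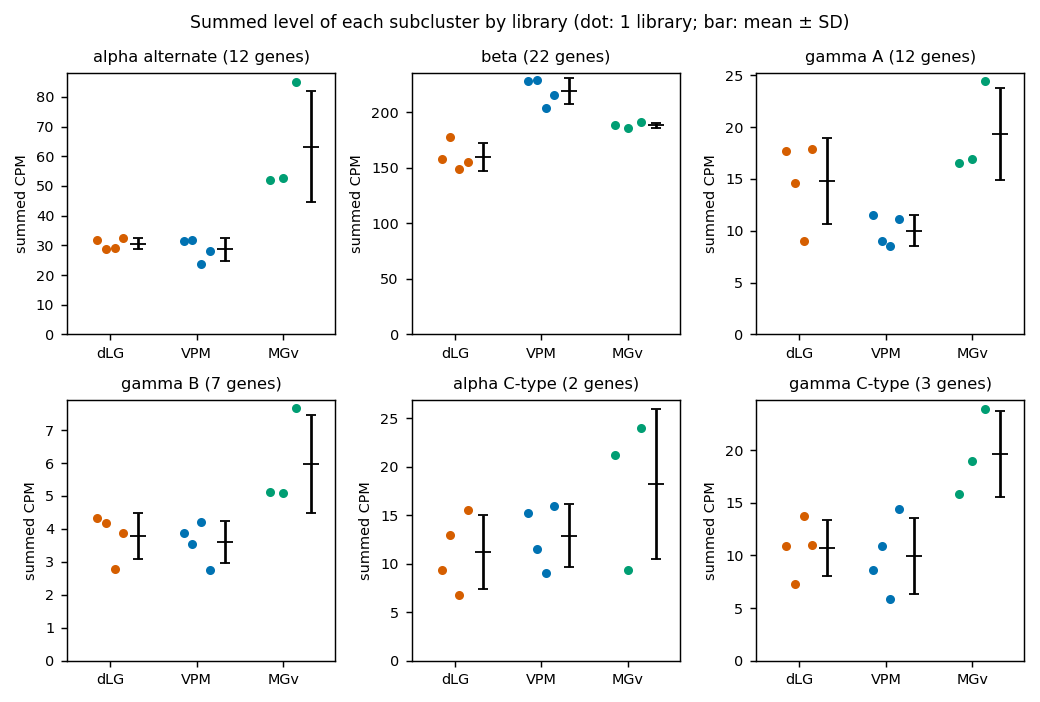
Summed CPM of the members of each subcluster (y axis, from 0, with its own range for each panel) in dLG, VPM and MGv (x axis). Dots are libraries and black bars are mean ± SD; the beta sums of VPM (204 to 229 CPM) lie above those of dLG (149 to 178 CPM), and the alternate alpha sums of MGv (52.1 to 84.9 CPM) lie above all others (23.6 to 32.5 CPM).

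Between dLG and VPM, 4 of the 51 tested members passed an adjusted p under 0.1 (edgeR's quasi-likelihood test, Benjamini-Hochberg adjustment over 15907 genes), against 10.7% of all genes tested. All 4 were beta genes, all were higher in VPM, and among all genes tested 5.74% were called higher in VPM. No member was called higher in dLG by edgeR, where 4.97% of all genes tested were; 2 members had an unadjusted p under 0.05, DESeq2 called 1 member (Pcdhac1), and limma's voom called 2. The fitted change was towards VPM for 21 of the 21 tested beta genes, with a median log2 fold change of VPM over dLG of 0.42 beside -0.005 for all genes tested. With libraries scaled by total counts, which moved the median of all genes to -0.102, 19 of the 21 beta genes were higher in VPM with a median of 0.33.

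Pcdhb7 measured 24.2, 20.2, 16.1 and 19.9 CPM in dLG, 31.3, 30.5, 27.7 and 29.4 CPM in VPM, and 27.2, 33.6 and 34.5 CPM in MGv. Every VPM and every MGv library lay above every dLG library, and VPM and MGv overlapped. The log2 fold change was 0.56 ± 0.155 (SE) for VPM over dLG (adjusted p = 0.0413) and 0.66 ± 0.167 for MGv over dLG (adjusted p = 0.0185). The first lost its call in 4 of 24 alternatives, among them without dLG replicate 3, VPM replicate 1 or VPM replicate 2, and the second in 0 of 24. MGv over VPM was 0.10 (adjusted p = 0.756).

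Pcdhb16 was the beta gene with the smallest adjusted p between dLG and VPM. It measured 7.73, 8.29, 8.34 and 7.64 CPM in dLG, 13.8, 12.4, 11.5 and 11.7 CPM in VPM, and 10.7, 9.04 and 9.33 CPM in MGv. The 3 nuclei did not overlap in any pair, with MGv between the others. VPM was 1.55-fold above dLG (log2 0.63 ± 0.166, adjusted p = 0.0332), and the change lost its call in 2 of 24 alternatives. Neither contrast with MGv passed (adjusted p = 0.394 against dLG and 0.229 against VPM).

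Pcdhb9 measured 17.0, 21.1, 14.9 and 13.1 CPM in dLG, 22.9, 24.1, 38.8 and 25.3 CPM in VPM, and 22.1, 18.2 and 15.6 CPM in MGv. All VPM libraries lay above all others, with VPM replicate 3, which also had low Hspa8, far above the other VPM libraries, while dLG and MGv overlapped. The log2 fold change of VPM over dLG was 0.74 ± 0.212 (adjusted p = 0.0489). Leaving out VPM replicate 3 kept the call, and leaving out dLG replicate 1, 3 or 4 each lost it.

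Pcdhb14 measured 5.05, 5.07, 3.76 and 4.44 CPM in dLG, 7.69, 7.62, 6.45 and 7.75 CPM in VPM, and 6.99, 6.23 and 7.58 CPM in MGv. Both VPM and MGv lay above dLG without overlap. VPM over dLG was 0.69 ± 0.203 on the log2 scale (adjusted p = 0.0563), a call lost in 10 of 24 alternatives, and MGv over dLG was 0.60 ± 0.22 (adjusted p = 0.103).

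The other 17 tested beta genes did not pass between dLG and VPM. Non-overlap of VPM above dLG was seen in 5 of the 21, the 4 called genes and Pcdhb4, which was picked out after its values were seen, where 7.12% of all genes tested showed it. Pcdhb20, among the highest beta genes, measured 21.7, 21.4, 23.9 and 19.3 CPM in dLG, 25.2, 26.3, 21.0 and 25.4 CPM in VPM, and 22.1, 20.4 and 18.3 CPM in MGv. Its nuclei overlapped in every pair, and its log2 fold change of VPM over dLG was 0.18 ± 0.146 (adjusted p = 0.551). The count of called beta genes depended on single libraries. It was 1 without dLG replicate 3 or VPM replicate 1 and 2 without dLG replicate 4 or VPM replicate 2, but 7 without VPM replicate 3 and 8 without the 3 libraries of low Hspa8. DESeq2 called 6 and limma's voom with library quality weights 14, all higher in VPM. The shares of all genes called under these alternatives are not given here, so their counts have no background to be read against.

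Between dLG and MGv only Pcdhb7 was called of the 21 tested beta genes, where 16.1% of all genes tested were called and 7.49% were called higher in MGv. Of the 21, 19 had a fitted change towards MGv with a median of 0.22 (16 of 21 with total counts). Between VPM and MGv edgeR called none, where 19% of all genes tested were called and 10.4% were called higher in VPM. There was 1 beta gene at an unadjusted p under 0.05 and 1 called by DESeq2 and by voom, higher in VPM. The median log2 fold change of MGv over VPM was -0.25, beside -0.022 for all genes tested, and 18 of the 21 were lower in MGv (16 of 21 with total counts). The 3 beta genes with all VPM libraries above all MGv libraries were Pcdhb3, Pcdhb9 and Pcdhb16, where 13.1% of all genes tested showed this order; Pcdhb3 was picked out after its values were seen.

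**Figure D3:**
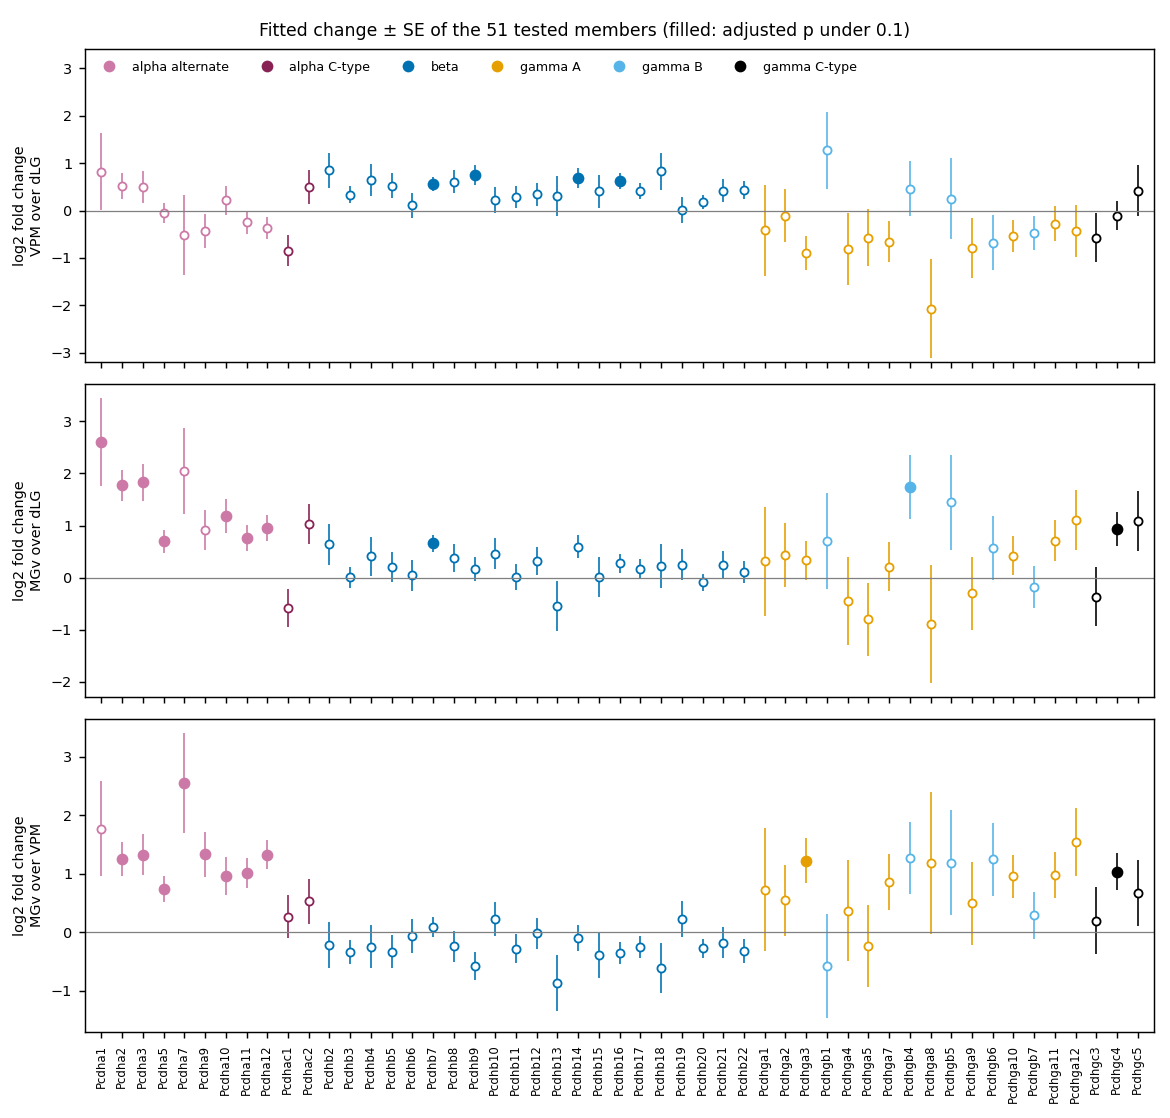
Fitted log2 fold change ± SE (y axis) of the 51 tested members in gene order (x axis) for VPM over dLG, MGv over dLG and MGv over VPM, coloured by subcluster, with filled points at an adjusted p under 0.1. The 21 beta genes lie above 0 in the first panel with 4 filled. The 9 alternate alpha genes lie above 0 in both panels with MGv, with 7 and 8 filled. Of these 9, Pcdha1 and Pcdha7 passed the count filter through MGv. The contrasts share libraries.

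The same beta genes held the highest shares of the beta signal in every library, while the sizes of their shares varied. By nucleus, Pcdhb7 held 13.1 ± 2.18% in dLG, 14.1 ± 0.205% in VPM and 17.5 ± 2.45% in MGv (SD over libraries). Pcdhb20 held 13.9 ± 1.92%, 11.4 ± 0.7% and 10.9 ± 1.09%. Measured per kb, Pcdhb7 held a mean of 14.6% of the summed beta level, Pcdhb9 13.2%, Pcdhb20 12.2%, Pcdhb12 10.4% (4.09% with bases under the opposite strand kept) and Pcdhb17 9.44%. The effective number of beta genes, which is the number of equally expressed genes that would give the same evenness of shares, was 14.9 ± 0.316 of 22 in dLG (SD over 4 libraries). It was 14.8 ± 0.873 in VPM (SD, n = 4), and MGv had 14.5 ± 0.627 (SD, n = 3). Across the 21 tested beta genes, which are not independent replicates and share depth within a library, the log profiles of libraries correlated at between 0.863 and 0.985 within a nucleus and between 0.848 and 0.978 across nuclei. These ranges nearly coincide, but genes that differ widely in level give high correlations in any case. The effective number describes evenness alone. Neither measure shows whether single genes kept their share. The level of a beta gene did not follow its position in the cluster (Spearman's rho of order and level -0.0506 over 21 genes, as a description).

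**Figure D4:**
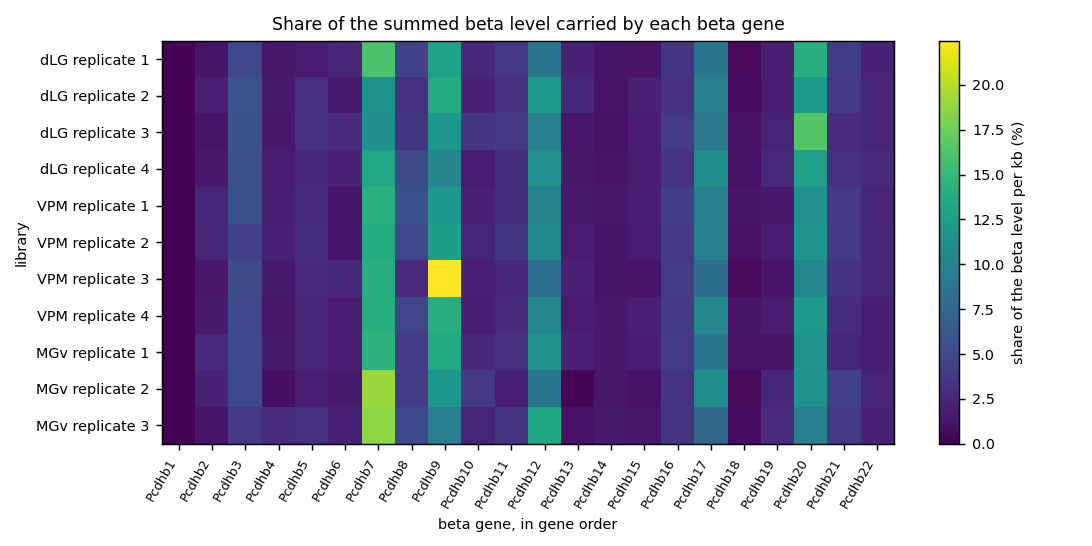
Share of the summed beta level, per kb, carried by each of the 22 beta genes (x axis, in gene order) in each of the 11 libraries (rows), as colour in percent. The bright columns are Pcdhb7, Pcdhb9, Pcdhb12, Pcdhb17 and Pcdhb20 in every library, of which Pcdhb12 depends on the length used, and VPM replicate 3 has the highest single share, 22.4% for Pcdhb9.

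The alternate alpha genes were highest in MGv. Their 12 members summed to 31.7, 28.7, 29.1 and 32.5 CPM in dLG, or 30.5 ± 1.88 CPM (SD, n = 4), and to 31.4, 31.8, 23.6 and 28.2 CPM in VPM, or 28.7 ± 3.8 CPM (SD, n = 4). In MGv they summed to 52.1, 52.7 and 84.9 CPM, or 63.2 ± 18.7 CPM (SD, n = 3). All MGv sums exceeded all sums of dLG and VPM, the latter overlapped, and MGv replicate 3 lay well above the other MGv libraries. MGv was 2.07-fold above dLG and 2.2-fold above VPM.

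Set against the beta sum of the same library, which removes differences in scaling, the alternate alpha genes had between 16.1 and 21.0 counts per 100 beta counts in dLG, between 11.6 and 13.9 in VPM and between 27.7 and 44.5 in MGv. The 3 ranges did not overlap. The means were 19.2 ± 2.12 (SD, n = 4), 13.1 ± 1.07 (SD, n = 4) and 33.5 ± 9.54 (SD, n = 3). For VPM the lower ratio came with the high beta sum, and for MGv the higher ratio came with the high alpha sum.

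**Figure D5:**
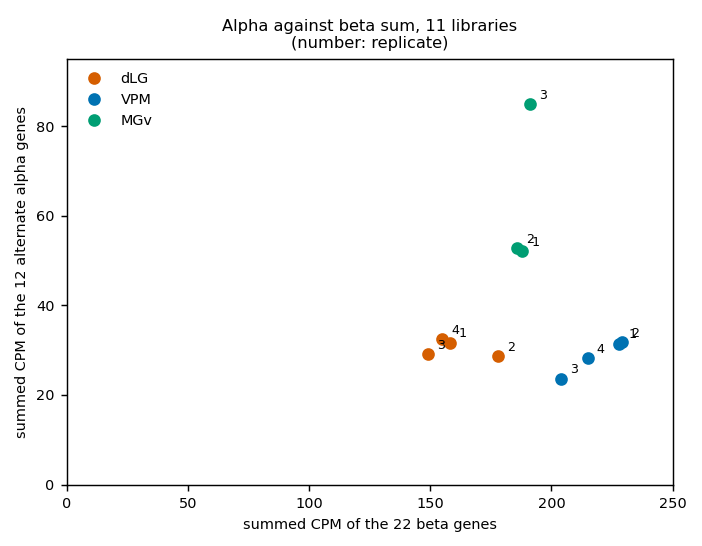
Summed CPM of the 12 alternate alpha genes (y axis) against that of the 22 beta genes (x axis) in the 11 libraries, numbered by replicate, with both axes from 0. The dLG and VPM libraries share an alpha range of 23.6 to 32.5 CPM and separate along the beta axis, and the 3 MGv libraries lie above both at beta sums of 186 to 191 CPM.

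Between dLG and MGv, 10 of the 51 tested members were called, against 16.1% of all genes tested, and all 10 were higher in MGv (7.49% of all genes tested). They were 7 of the 9 tested alternate alpha genes (Pcdha1, Pcdha2, Pcdha3, Pcdha5, Pcdha10, Pcdha11 and Pcdha12), Pcdhb7, Pcdhgb4 and Pcdhgc4. Between VPM and MGv 10 members were called, against 19% of all genes tested, and again all 10 were higher in MGv (8.56% of all genes tested). These were 8 of the 9 tested alternate alpha genes (Pcdha2, Pcdha3, Pcdha5, Pcdha7, Pcdha9, Pcdha10, Pcdha11 and Pcdha12), Pcdhga3 and Pcdhgc4. The contrasts share the MGv libraries, so they are not independent. Pcdha1 and Pcdha7 passed the count filter through MGv, so their higher level there was set in advance. Of the 7 alternate alpha genes that pass without MGv, 6 were called over dLG and 7 over VPM. By edgeR 0 members were called lower in MGv than in dLG, where 8.61% of all genes tested were, and 0 lower than in VPM, where 10.4% were. At an unadjusted p under 0.05 these were 0 and 1 members, and DESeq2 and voom each called 0 and 1. In the test of any difference among the nuclei, 15 members passed, against 24.2% of all genes tested. Of them 9 were the 9 tested alternate alpha genes, Pcdha1 and Pcdha7 included.

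The 9 tested alternate alpha genes all had higher fitted levels in MGv than in dLG and in VPM, with medians of the log2 fold change of 1.18 and 1.33, beside -0.015 and -0.022 for all genes tested. Total counts or DESeq2 size factors in place of the main scaling gave the same 9 of 9. Pcdha1 and Pcdha7 reached the level of the count filter in at most 1 library outside MGv, so they passed it through MGv and had to be higher there. Of the 7 genes that pass without MGv, 7 had higher fitted levels in MGv in both contrasts, with medians of 0.95 over dLG and 1.26 over VPM, and 6 and 7 of them were called. All MGv libraries lay above all dLG libraries in 8 of the 9 (11.3% of all genes tested) and above all VPM libraries in 9 of the 9 (12% of all genes tested), or in 6 and 7 of the 7 genes that pass without MGv. The calls leaned on MGv replicate 3. Without it the medians were 0.88 and 1.06, 9 of 9 kept their direction in both contrasts, and 2 genes were called against each nucleus, Pcdha2 and Pcdha3 against dLG and Pcdha2 and Pcdha12 against VPM. Without dLG replicate 3 the count against dLG was 4, and with no count filter, where all 12 genes were tested, the counts were 4 and 5.

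Pcdha2 measured 1.58, 1.63, 1.69 and 2.0 CPM in dLG, 2.78, 3.16, 1.86 and 2.09 CPM in VPM, and 5.79, 5.35 and 6.71 CPM in MGv. The MGv libraries were close together and far above the rest, and dLG and VPM overlapped. Its log2 fold change was 1.78 ± 0.298 over dLG (adjusted p = 0.00132) and 1.26 ± 0.294 over VPM (adjusted p = 0.0122), and both calls held under all 24 alternatives, each left-out library included.

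Pcdha3 measured 2.13, 2.11, 1.31 and 2.20 CPM in dLG, 3.38, 3.16, 2.23 and 2.19 CPM in VPM, and 4.58, 5.44 and 10.8 CPM in MGv. All MGv libraries lay above the rest, replicate 3 well above the other two, and dLG and VPM overlapped. MGv over dLG was 1.83 ± 0.357 on the log2 scale (adjusted p = 0.00373), called under all 24 alternatives, and MGv over VPM was 1.33 ± 0.352 (adjusted p = 0.0234), lost only without MGv replicate 3.

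Pcdha12 measured 6.58, 5.71, 5.67 and 7.30 CPM in dLG, 5.28, 5.41, 3.91 and 4.85 CPM in VPM, and 8.26, 12.6 and 15.9 CPM in MGv. No pair of nuclei overlapped, with MGv highest and VPM lowest. MGv over VPM was 1.33 ± 0.25 on the log2 scale (adjusted p = 0.00327) and MGv over dLG 0.95 ± 0.249 (adjusted p = 0.0219), the latter lost without MGv replicate 3. The step from dLG to VPM did not pass (adjusted p = 0.417).

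Pcdha11 measured 5.05, 5.76, 5.34 and 5.73 CPM in dLG, 4.45, 4.85, 4.59 and 4.52 CPM in VPM, and 6.39, 8.07 and 13.4 CPM in MGv. The nuclei followed the same order as for Pcdha12 with no overlap. MGv over VPM was 1.01 ± 0.258 on the log2 scale (adjusted p = 0.0199) and MGv over dLG 0.76 ± 0.257 (adjusted p = 0.0749). The call over VPM was lost only without MGv replicate 3, and that over dLG in 12 of 24 alternatives. The opposite-strand partner Gm10545 of Pcdha11 had at most 26 counts in any library. A second such gene, Gm10544, covers 852 exonic bases of Pcdha11, and its counts are not given here.

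Pcdha5 measured 9.38, 7.22, 7.52 and 9.64 CPM in dLG, 9.22, 8.31, 7.38 and 7.66 CPM in VPM, and 13.2, 10.4 and 17.4 CPM in MGv. MGv lay above both, and dLG and VPM filled the same range. The log2 fold changes of 0.69 ± 0.22 over dLG (adjusted p = 0.0576) and 0.74 ± 0.22 over VPM (adjusted p = 0.0399) were the smallest of the 9 in each contrast. The calls were lost in 8 and 2 of 24 alternatives, in both cases also without MGv replicate 3.

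Pcdha10 measured 2.31, 1.85, 1.80 and 1.57 CPM in dLG, 2.46, 2.16, 1.86 and 2.24 CPM in VPM, and 3.76, 3.16 and 5.93 CPM in MGv. Its MGv libraries lay above all others, at log2 fold changes of 1.18 ± 0.327 over dLG (adjusted p = 0.0297) and 0.97 ± 0.325 over VPM (adjusted p = 0.0669). These calls were lost in 2 and 11 of 24 alternatives, both among them without MGv replicate 3.

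Pcdha9 was the exception to the order in dLG, with 3.84, 3.31, 5.12 and 3.01 CPM there, 2.78, 3.55, 1.18 and 3.80 CPM in VPM, and 7.36, 4.56 and 9.72 CPM in MGv. The second MGv library fell below dLG replicate 3. It was called over VPM (log2 1.34 ± 0.385, adjusted p = 0.0348; lost without MGv replicate 3) and not over dLG (adjusted p = 0.153).

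Pcdha1 and Pcdha7 were near the floor outside MGv. Pcdha1 was between 0 and 0.516 CPM in dLG, between 0.062 and 0.649 CPM in VPM and at 1.13, 1.23 and 1.65 CPM in MGv, and Pcdha7 did not exceed 0.334 CPM in dLG or 0.186 CPM in VPM and was at 0.526, 0.702 and 1.07 CPM in MGv. For both genes the MGv libraries were the highest. Since both passed the filter through MGv, their tests add nothing to this order: Pcdha1 was called over dLG (adjusted p = 0.0633) and Pcdha7 over VPM (adjusted p = 0.0649), and each call was lost when any 1 of the MGv libraries was left out. Pcdha6, not tested, was between 0.186 and 0.487 CPM in dLG and VPM and at 0.451, 0.878 and 2.24 CPM in MGv.

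Between dLG and VPM edgeR called no alternate alpha gene, against 10.7% of all genes tested, and none had an unadjusted p under 0.05. DESeq2 called none and voom 2, both higher in VPM. In the other direction, Pcdha11 and Pcdha12 had all dLG libraries above all VPM libraries, where 7.49% of all genes tested did. The effective number of alternate alpha genes was 6.32 ± 0.225 of 12 in dLG (SD over 4 libraries). It was 6.7 ± 0.455 in VPM (SD, n = 4), and MGv, where the level was spread over somewhat more genes, had 7.62 ± 0.366 (SD, n = 3). Pcdha11 held a mean of 25.8%, Pcdha5 22.5% and Pcdha12 19.5% of the alpha level per kb, or 9.31%, 29.3% and 20% with bases under the opposite strand kept, by which the effective numbers were 6.72, 6.95 and 7.98.

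The gamma A genes were low. They summed to 17.7, 14.6, 8.99 and 17.9 CPM in dLG, 11.5, 9.04, 8.5 and 11.1 CPM in VPM, and 16.5, 16.9 and 24.4 CPM in MGv. The dLG range overlapped that of VPM through dLG replicate 3 and that of MGv through dLG replicates 1 and 4, and VPM lay below MGv. Between dLG and VPM 11 of the 11 tested genes had a higher fitted level in dLG, also with total counts, with a median log2 fold change of VPM over dLG of -0.57. Pcdhga8 and Pcdhga9 reached the filter level in 2 dLG and 0 VPM libraries, and Pcdhga5 in 3 and 1. The filter thus favoured this direction for them. With no count filter 11 of 12 genes were higher in dLG, and 5 of 5 with at least 10 counts in every library. None of the 11 passed in edgeR, against 10.7% of all genes tested, and 1 had an unadjusted p under 0.05. DESeq2 called none, voom 1, and edgeR 1 without dLG replicate 3.

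Pcdhga3 measured 3.65, 3.05, 1.63 and 3.29 CPM in dLG, 1.34, 1.64, 2.11 and 1.19 CPM in VPM, and 3.23, 2.63 and 5.15 CPM in MGv. All MGv libraries lay above all VPM libraries, and dLG overlapped both. It was the only gamma A gene called, for MGv over VPM (log2 1.22 ± 0.384, adjusted p = 0.0517), and the call was lost in 7 of 24 alternatives, among them without MGv replicate 3. DESeq2 called 4 gamma A genes in this contrast, with no share over all genes given beside it.

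Pcdhga11, which held a mean of 40% of the gamma A level per kb (21.5% with bases under the opposite strand kept), measured 3.04, 2.32, 1.58 and 3.72 CPM in dLG, 2.09, 2.21, 1.18 and 3.28 CPM in VPM, and 3.38, 4.56 and 5.15 CPM in MGv. MGv lay above VPM without overlap and overlapped dLG, and no contrast passed (adjusted p = 0.118 for MGv over VPM). Pcdhga7 ranged from 0.763 to 2.37 CPM over the libraries and its nuclei overlapped in every pair. Its adjusted p was at least 0.266 in each contrast.

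Of the gamma B genes Pcdhgb7 held a mean of 56.8% of the level per kb (48.5% with bases under the opposite strand kept). It measured 2.56, 2.23, 1.09 and 2.43 CPM in dLG, 1.58, 1.6, 1.61 and 1.19 CPM in VPM, and 1.58, 2.37 and 1.56 CPM in MGv, with every pair of nuclei overlapping and no contrast passing (adjusted p from 0.53 to 0.843). Pcdhgb4 was at 0.122, 0.559, 0.272 and 0.62 CPM in dLG, 0.324, 0.606, 0.93 and 0.38 CPM in VPM, and 1.73, 1.14 and 1.17 CPM in MGv. Its MGv libraries lay above all others. It was called over dLG (log2 1.74 ± 0.62, adjusted p = 0.0923), a call lost in 14 of 23 alternatives, and not over VPM (adjusted p = 0.198). Pcdhgb6 had the same order, with 0.702 to 0.902 CPM in MGv and at most 0.609 CPM elsewhere, and did not pass in any contrast.

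The 5 C-type genes differed from one another. Pcdhgc4, the C-type isoform known for a role in the survival of neurons, had the highest level per kb of the gamma genes (3.23 CPM per kb). It measured 8.77, 6.44, 12.3 and 9.35 CPM in dLG, 7.42, 9.91, 4.53 and 12.3 CPM in VPM, and 13.0, 17.0 and 22.7 CPM in MGv. All MGv libraries lay above all others, the lowest only just, and dLG and VPM overlapped. MGv was higher by a log2 fold change of 0.93 ± 0.319 over dLG (adjusted p = 0.0774) and of 1.04 ± 0.319 over VPM (adjusted p = 0.0471), calls lost in 8 and 2 of 24 alternatives and both without MGv replicate 3.

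Pcdhac2, the isoform used in the spacing of serotonergic axons, measured 5.42, 9.28, 5.01 and 11.4 CPM in dLG, 12.9, 9.91, 7.13 and 14.1 CPM in VPM, and 18.5, 7.11 and 22.3 CPM in MGv. The spread within each nucleus was wide, every pair overlapped, and no contrast passed (adjusted p = 0.106 for MGv over dLG in edgeR). MGv over dLG was called in 8 of 24 alternatives, among them DESeq2 and the covariate for the 3 libraries of low Hspa8. Of these libraries, VPM replicate 3 was the lowest of its nucleus, and dLG replicate 2 and MGv replicate 1 were not. The part of low Hspa8 in the spread was not tested.

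Pcdhac1 measured 3.90, 3.74, 1.80 and 4.06 CPM in dLG, 2.27, 1.56, 1.86 and 1.81 CPM in VPM, and 2.7, 2.28 and 1.75 CPM in MGv. In dLG 3 libraries lay above all libraries of the other nuclei and dLG replicate 3 lay among them. The log2 fold change of VPM over dLG was -0.85 ± 0.331 (adjusted p = 0.158 in edgeR), and DESeq2 and voom called it.

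Pcdhgc3 ranged from 0.346 to 1.28 CPM and Pcdhgc5 from 0.387 to 1.73 CPM over all libraries. Their nuclei overlapped in every pair, and no contrast passed, the smallest adjusted p being 0.267 for Pcdhgc5 between dLG and MGv. BC037039, on the other strand of Pcdhgc3, was far higher than it, at between 5.64 and 20.5 CPM, and was itself called lower in MGv than in dLG (adjusted p = 0.0134).

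Of 20 genes that set up or silence protocadherin promoters, all tested, edgeR called 2 between dLG and VPM, a share near the 10.7% of all genes tested, both lower in VPM: Ctcf, the insulator protein that binds these promoters and their enhancers, and Stag1, a cohesin subunit. Ctcf was at 38.6 to 54.6 CPM in dLG, 31.4 to 34.0 CPM in VPM and 38.6 to 53.4 CPM in MGv, with dLG above VPM without overlap (adjusted p = 0.0337), and Stag1 at 33.0 to 43.0, 23.5 to 29.2 and 37.3 to 42.4 CPM (adjusted p = 0.0456). MGv had 2 of the 20 called higher than dLG (7.49% of all genes tested), the maintenance methyltransferase Dnmt1 (66.6 to 77.7 CPM in dLG, 110 to 123 CPM in MGv, adjusted p = 0.0137) and the corepressor Trim28 (adjusted p = 0.0749). MGv had 6 of the 20 called higher than VPM (8.56% of all genes tested), namely Ctcf, Stag1, Smc3, Dnmt1, Smchd1 and Trim28. EdgeR called 0 of the 20 lower in MGv, and the median log2 fold change of VPM over MGv in this list was -0.339, beside 0.022 for all genes tested. Smchd1, which silences parts of the cluster, was at 39.9 to 51.1 CPM in VPM and 57.9 to 59.7 CPM in MGv (adjusted p = 0.0934).

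Of 20 genes for binding partners and signalling of protocadherins, all tested, 6 were called in the test of any difference, against 24.2% of all genes tested. Ptk2b, the kinase that alpha and gamma constant domains bind, was at 10.6 to 24.6 CPM in dLG, 11.0 to 17.4 CPM in VPM and 2.40 to 3.86 CPM in MGv. It was called lower in MGv than in dLG (adjusted p = 0.000124) and than in VPM (adjusted p = 0.000458), so it ran in the opposite direction to the alpha genes. The receptor tyrosine kinase Ret was also called lower in MGv in both contrasts (adjusted p = 0.0487 and 0.031). Between VPM and MGv Pdcd10 was lower and Marcks and Axin1, a partner of Pcdhgc3, were higher in MGv (adjusted p = 0.0261, 0.0483 and 0.0458). Wasf1, a subunit of the WAVE complex that takes up signals from alpha protocadherins, was the only one called between dLG and VPM, higher in VPM (adjusted p = 0.051).

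Markers of cell types were examined beside these results. The 9 pan-neuronal markers summed to between 10100 and 13400 CPM in every library and the 6 thalamic markers to between 1900 and 3020 CPM, so markers of the labelled cells were present in every library. Gbx2, the locus that carries the Cre, was at 272 to 333 CPM in MGv and at 14.2 to 51.6 CPM in dLG and VPM. The 7 astrocyte and radial glia markers summed to 57 to 140 CPM in dLG, 86.8 to 151 CPM in VPM and 76.2 to 192 CPM in MGv. Of this list Slc1a3 and Aldoc were called higher in MGv than in dLG and Aldoc higher in VPM than in dLG, while Gfap did not exceed 0.0751 CPM in MGv. The 6 oligodendrocyte lineage markers summed to 7.92 to 22 CPM in dLG, 27 to 35.5 CPM in VPM and 65.3 to 74.5 CPM in MGv, nearly all of it Mbp, while Olig2 and Sox10 were at 0 in all MGv libraries. The 3 serotonergic markers summed to 40.9 to 88, 131 to 371 and 56.1 to 115 CPM, nearly all of it Slc6a4, and Fev did not exceed 0.436 CPM in any library. Microglial (5.23 to 22.6 CPM), endothelial (0.292 to 6.67 CPM), GABAergic (0.0477 to 3.64 CPM) and choroid plexus markers (0.0954 to 0.977 CPM) were low. In both contrasts Gbx2, Tcf7l2, Rbfox3, Slc1a3 and Mbp were called higher in MGv, as most tested alpha genes were. Lef1, Slc17a6, Prox1, Nefm and Tek went the opposite way and were called lower in MGv in both contrasts. The endothelial Kdr and the microglial Aif1 were called higher in MGv only over dLG (adjusted p = 0.0479 and 0.0967). Aqp4 and Map2 were called higher in MGv only over VPM (adjusted p = 0.0686 and 0.0994). Rora was called lower in MGv than in dLG, and Snap25 and Slc6a4 lower than in VPM. Of the 6 thalamic markers, 4 were thus called lower in MGv than in dLG and 2 higher. The part of any of these in the alpha difference was not tested. Other markers moved with the beta sums, with the lowest mean in dLG and the highest in VPM: Aldoc (2.1 to 11.8 CPM in dLG, 27.9 to 46.6 CPM in VPM, adjusted p = 0.00103), Slc6a4 (40.4 to 86.3 and 130 to 369 CPM, adjusted p = 0.000705) and the endothelial Kdr (0 to 0.172 and 1.3 to 2.92 CPM, adjusted p = 0.005). Mbp, Snap25, Prox1 and Flt1 were also called higher in VPM than in dLG, and Rora lower. The endothelial Tek went the other way without a call, at means of 3.63 CPM in dLG and 1.58 CPM in VPM (adjusted p = 0.22). The part of these in the beta difference was not tested.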

How the data were processed

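RNA-seq counts of 11 libraries of sorted thalamic neurons (4 dLG, 4 VPM, 3 MGv, by sample title) were used. Per Ensembl gene, the deposited value is a raw count of reads. It was made on an Ensembl release whose exons need not equal those used here for lengths. The authors trimmed 50-base single reads with Trim Galore 0.6.1, aligned them with STAR 2.7.0d to GRCm38 (mm10) and counted them with featureCounts of Subread 1.6.4; the strand setting and the treatment of reads shared by genes are not given in the sources used here. The cDNA came from a SMARTer kit for low RNA input.

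Names and exons came from GENCODE M21 of the same build (54723 of 54752 identifiers matched), and 1 of the 2 genes it names Pcdha11 was called Pcdha10, because its first exon holds the start of the Pcdha10 of RefSeq. Of 33170 genes with a count, filterByExpr of edgeR 4.0.16 (R 4.3.3) kept 15907. TMM scaling and quasi-likelihood tests (a single model of 3 nucleus means over 11 libraries, no covariate, two-sided, Benjamini-Hochberg threshold 0.1) gave log2 fold changes, with SE as the absolute change over the square root of F. The threshold is that of the study. On simulated counts the fit was tested before use. Replicate libraries of a nucleus all differed by more than sampling noise. The floor covers counting error only: several amplified reads can stem from 1 molecule.

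The members and gene lists were chosen with earlier results of these data known. Members named with values were those called in any test, the 3 highest and the lowest per kb of each alternate or beta subcluster and the 5 C-type genes; Pcdha6, Pcdhb3, Pcdhb4, Pcdhb12, Pcdhb17 and Pcdhb18 were added once their values had been seen. Of the regulators and partners, the genes called were named. Alternatives were DESeq2 1.42.0, voom with quality weights (limma 3.58.1), DESeq2 size factors, total counts, other filters, a replicate block, GC offsets, thinned counts, other thresholds, only the nuclei compared, a covariate for or removal of the 3 libraries of low Hspa8, and each library left out. Lengths that keep bases under opposite-strand genes, and alpha genes passing the filter without MGv, were alternatives added after seeing the data. No sequences are shown.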

Additional observations from a re-analysis of the deposited data

Results flagged for a closer look

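Of 74 sets of 4 libraries (members in dLG and VPM) tested for 1 library far from the others, 7 were flagged, and chance flags about 1 in 20. In dLG replicate 3, Pcdha3 was at 1.31 CPM against 2.11 to 2.2 CPM in the other dLG libraries and Pcdhac1 was at 1.8 CPM against 3.74 to 4.06 CPM. In VPM replicate 3, which had low Hspa8, Pcdhb9 was at 38.8 CPM against 22.9 to 25.3 CPM and Pcdhb14 at 6.45 CPM against 7.62 to 7.75 CPM, so the beta genes that were far off in this library moved in opposite directions. Pcdhga7 was at 1.34 CPM in VPM replicate 1 against 0.779 to 0.868 CPM, and Pcdhgb7 was at 1.19 CPM in VPM replicate 4 against 1.58 to 1.61 CPM. Pcdhgb8 was at 0.0954 CPM in dLG replicate 4 and at 0 in the other dLG libraries, which is below the floor of 3 counts. The 3 MGv libraries were not put to this test.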

How the results depend on the processing

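No called change of a named member turned its direction under an alternative that gave it a value. Between dLG and VPM the 4 calls became 2 with total counts, 2 with no count filter, 7 with DESeq2, 18 with voom, 8 without the 3 libraries of low Hspa8 and 0 with an absolute log2 fold change over 1 in edgeR (10 members had an unadjusted p under 0.05). Between dLG and MGv the 10 calls became 6 with the replicate block, 5 at an adjusted p under 0.05 and 5 with an absolute log2 fold change over 1. Among the 3 nuclei the 15 calls became 26 with voom, 9 with the GC offset and the replicate block together and 9 at an adjusted p under 0.05. Leaving out 1 library gave 1 to 7 calls between dLG and VPM (1 without VPM replicate 1, 7 without VPM replicate 3), 3 to 13 between dLG and MGv, 2 to 10 between VPM and MGv, and 7 to 18 among all nuclei, with the lowest of the last 3 without MGv replicate 3. Other single libraries moved a count by over 1.5 times: 2 calls were made between dLG and VPM without dLG replicate 4 or VPM replicate 2, 6 between dLG and MGv without dLG replicate 1 or 3, and 9 among the nuclei without VPM replicate 1. The cause of these moves was not tested. The shares of all genes called under the alternatives, DESeq2 and voom included, are not given here, so a higher count under 1 of them is not stronger support.

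Replicate numbers were not shown to pair the samples, and the labels do not say whether they do. Deviations of same-numbered libraries correlated at a mean of 0.0155 (-0.203 to 0.483), those of other pairs at -0.00505 (-0.311 to 0.268). Of the 11 libraries, 4 correlated best with their own number. So few pairs cannot exclude a pairing. Apart from the counts above, the replicate block gave 3 calls between dLG and VPM, 7 for VPM against MGv and 10 for any difference. Thinned to the smallest total, 8 alternate alpha genes were tested and 6 were called over each nucleus, with medians of 1.05 over dLG and 1.23 over VPM.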
